A study of Mus musculus with 32 samples.

Results

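The vacuolar proton pump (V-ATPase) subunits and the lettered cathepsins were followed in mouse liver across 4 groups that crossed a Western diet with dietary E171, the food-grade titanium dioxide pigment. Members were the array probes whose gene name started with Atp6v0 or Atp6v1, or was Cts followed by 1 letter. The rule found 65 probes of 56605 non-control probes, for 40 genes of the 37488 genes or unnamed probes of the array. These were 22 V-ATPase subunit genes and 18 cathepsin genes. Of them, 33 genes (18 V-ATPase and 15 cathepsin) passed the filter on dim probes and were tested together with all other genes, 23644 in total.

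Liver RNA came from 32 male C57BL/6J mice of the F1 generation, each hybridised to its own one-colour Agilent array. There were 8 Western diet control mice, 8 Western diet E171 mice, 8 normal diet control mice and 8 normal diet E171 mice. The E171 pellets were made for a daily 10 mg per kg body weight, and the mothers had eaten the same control or E171 pellets from 40 days before mating, so lifelong and maternal exposure go together. Mice of the Western groups changed diet at 5 weeks of age and stayed on it for 16 weeks, and all were sampled at 21 weeks; the protocol calls that diet high fat, the group labels Western. Litters are not named in the labels, so each mouse counts as an independent sample here, although littermates share a mother.

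The V-ATPase is a rotary machine that acidifies lysosomes, endosomes and secretory vesicles. Its V1 sector, in the cytosol, splits ATP, and its V0 sector, in the membrane, carries protons across. Several subunits exist as a broadly made isoform and a tissue-restricted one. Most cathepsins are cysteine proteases that need this acid to mature and work; cathepsins D and E are aspartic proteases, and cathepsins A and G are serine enzymes. In liver, hepatocytes make many of them, and macrophages are rich in lysosomes.

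The 2 array probes of Atp6v0d2, the tissue-restricted d subunit of the V0 sector, are shown because they carry the largest V-ATPase difference and lie in different places of the gene. In the mm9 build given in the file headers, they lie on the minus strand at chr4:19837769-19837828 (the dimmer probe) and chr4:19805367-19805426 (the brighter probe, used for the gene), and each reads through in at least 1 frame with no stop codon.
dimmer probe: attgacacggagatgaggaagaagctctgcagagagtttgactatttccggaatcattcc
brighter probe: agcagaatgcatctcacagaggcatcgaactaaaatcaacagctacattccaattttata

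Arrays had 32163 to 37261 probes well above background and 0 saturated spots. On the normal diet the range was 33697 to 35445 in control mice and 34049 to 35937 in E171 mice. On the Western diet it was 35308 to 37070 and 32163 to 37261. The 75th percentile intensity averaged 255 and 248 on the normal diet, against 300 and 280 on the Western diet. Subtracting it takes this difference out of the levels, and not out of the detection calls. Arrays within a group correlated at 0.981 to 0.996. Levels are given as log2 of the Cy3 signal relative to the 75th percentile of the array, so a value of 0 is that percentile, and levels of different genes are not set against each other because each probe has its own brightness. Each of the 12 hepatocyte markers was measured, and their mean log2 level ran from 7.87 to 8.90 over the 32 mice. Western diet control mouse 5 stood apart from its group: its macrophage markers averaged 1.57 on the log2 scale, against 2.42 to 3.00 in the other 7 mice, and its hepatocyte markers averaged 8.73, against 7.96 to 8.50. Western diet E171 mouse 8 had the fewest probes well above background (32163) and was the lowest of its group in 10 of the 18 V-ATPase genes. Counts of called members are given with and without each of these mice. The differences of Atp6v0d2 and Ctss are also given without Western control mouse 5, and those of Ctsk and Atp6v0e2 only with it. Leaving that mouse out changed the call of no member among control mice.

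On the Western diet, among control mice, 14 of the 33 tested members were higher and 3 were lower than on the normal diet (limma, Benjamini-Hochberg adjusted p under 0.05 over all genes). Over all genes, 18.5% were called higher and 28.8% lower, 47.3% in all, so a diet difference was common. Among E171 mice, in a comparison that shares no mice with that one, 16 members were higher and 7 lower, against 22.2% higher and 31% lower over all genes, 53.2% in all. The called members shared by both comparisons were 13 higher, Ctse among them, and 2 lower. The share of all genes called the same way in both was not computed, so this overlap is not read as particular to the members. The median member differed by 0.13 among control mice and by 0.16 among E171 mice on the log2 scale, while the median over all genes was -0.10 in both. Atp6v0d2, Ctsk and Ctss were called and at least 2-fold higher in each comparison. Ctse makes 4 with them by a bound, but passed the filter on dim probes only through its Western arrays, so its call is no support. All genes gave 5.45% among control mice and 6.59% among E171 mice by the same filter. No member was called and at least 2-fold lower (1.76% and 1.99% of all genes). The counts of higher members include Ctse. Those of lower members among control mice include Ctsm, which passed the filter only through its normal diet arrays. Without Western control mouse 5 the counts among control mice were again 14 and 3, and without Western E171 mouse 8 those among E171 mice were again 16 and 7; without normal diet control mouse 5, which stood apart in neutrophil markers, those among control mice were 14 and 3.

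**Figure D1:**
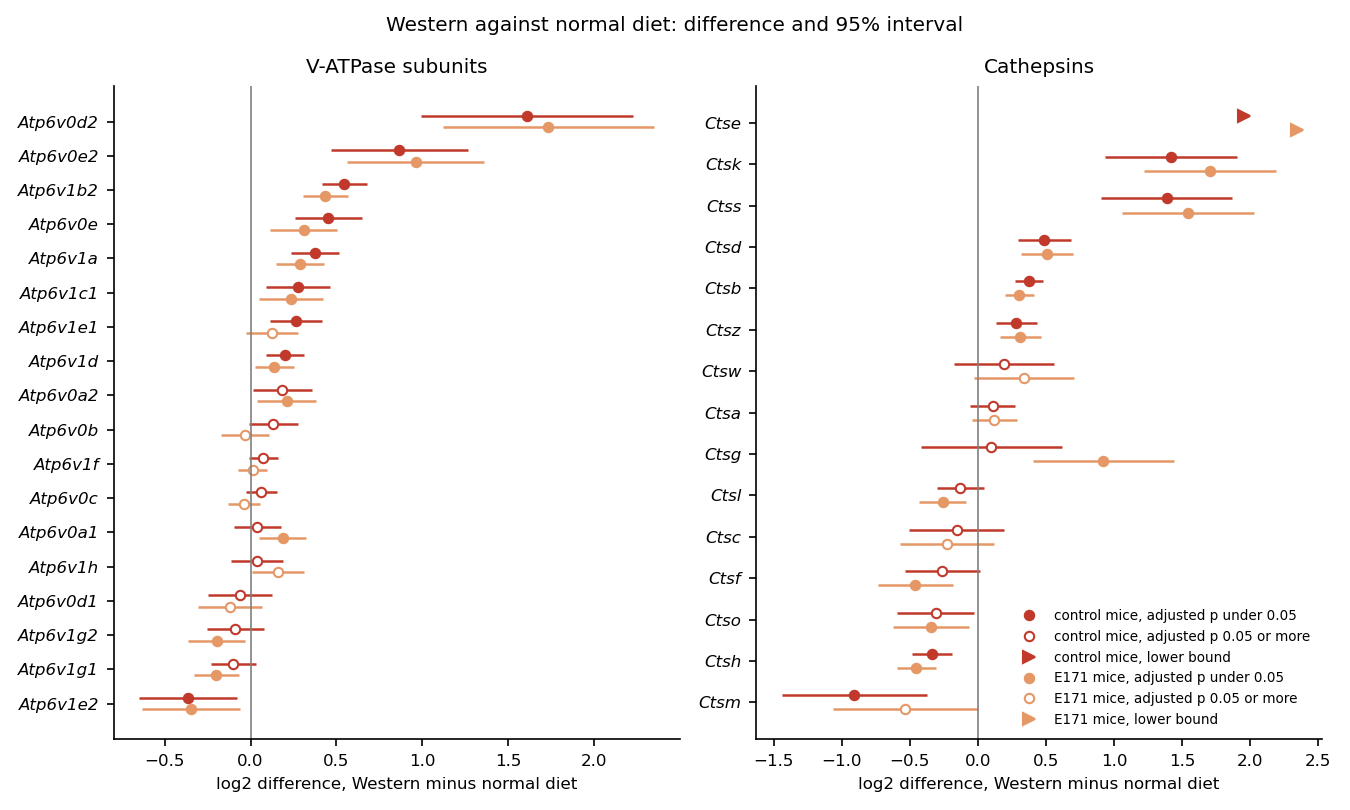
Log2 difference (x axis) of each tested V-ATPase subunit (left) and cathepsin (right), Western minus normal diet, with its 95% interval, for control mice (red) and E171 mice (orange), 8 mice a group; filled points have an adjusted p under 0.05. Triangles give the lower bounds for Ctse, 1.95 and 2.34, which have no interval; Atp6v0d2 stands at 1.61 and 1.73, right of the other V-ATPase subunits.

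In the V0 sector, Atp6v0d2 and Atp6v0e2 gave the largest differences. Atp6v0d2, known from osteoclasts, kidney and macrophages, had levels of -3.47, -1.24 and -0.87 (lowest, median and highest) in Western control mice, against -4.02, -3.16 and -2.20 in normal diet control mice. E171 mice had levels of -2.38, -1.55 and -1.03 on the Western diet, against -4.0, -3.23 and -2.86 on the normal diet. Mouse 5 was the sole Western control mouse within the range of its normal diet group, and the E171 groups did not overlap. The gene was 3.05-fold higher among control mice (95% interval 1.99 to 4.67, adjusted p = 6.93e-05) and 3.33-fold higher among E171 mice (2.17 to 5.1, adjusted p = 2e-05). Without mouse 5 the log2 difference among control mice was 1.88, in place of 1.61. The second probe was well above background on 11 of the 16 Western arrays and on 1 of the 16 normal diet arrays, so it gives no size for the difference.

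Its broadly made partner Atp6v0d1 was at 3.56, 3.81 and 3.91 in Western control mice, against 3.55, 3.85 and 4.08 in normal diet control mice. Levels in E171 mice were 3.26, 3.73 and 3.85 on the Western diet, against 3.46, 3.79 and 4.03 on the normal diet. The groups overlapped widely, and the log2 differences of -0.06 (SE 0.09) among control mice and -0.12 (SE 0.09) among E171 mice did not pass the test. Whether the d isoforms differ from each other in their response was not tested.

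Atp6v0e2, an isoform of the small e subunit, had levels of -1.89, -1.01 and -0.23 in Western control mice, against -2.56, -1.92 and -1.51 in normal diet control mice. In E171 mice it was at -1.63, -0.98 and -0.58 on the Western diet, against -2.43, -1.96 and -1.71 on the normal diet. The E171 groups did not overlap, while 2 of the 8 Western control mice lay within the normal diet range. It was 1.82-fold higher among control mice (95% interval 1.38 to 2.40, adjusted p = 0.00056) and 1.95-fold higher among E171 mice (1.48 to 2.56, adjusted p = 0.000142). The other isoform, Atp6v0e, was 1.37-fold and 1.24-fold higher by its brightest probe (adjusted p = 0.000263 and 0.0074), but its 3 probes did not move together: the others differed by -0.04 and 0.09 among control mice and by -0.03 and -0.43 among E171 mice. Its mean over probes differed by -0.05 among E171 mice, so the direction for this gene rests on the choice of probe.

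The remaining V0 genes differed little. Of the a subunits, which steer the pump to its membrane, Atp6v0a1 and Atp6v0a2 were higher among E171 mice by 0.19 (SE 0.07) and 0.21 (SE 0.08) on the log2 scale, and did not pass among control mice (0.04 and 0.19). The 3 probes of Atp6v0a2 disagreed among control mice: 1 other differed by 0.23 (adjusted p = 0.0369) and the remaining one by -0.29 (adjusted p = 0.0064), with 0.30 (adjusted p = 0.0067) and -0.06 (adjusted p = 0.594) among E171 mice. Atp6v0a4, the kidney isoform, was dim, well above background on 18 of the 32 arrays, and was not tested. Atp6v0b and Atp6v0c, the proteolipids of the rotating ring, differed by 0.13 and 0.06 among control mice and by -0.03 and -0.04 among E171 mice, and none of the 4 passed.

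**Figure D2:**
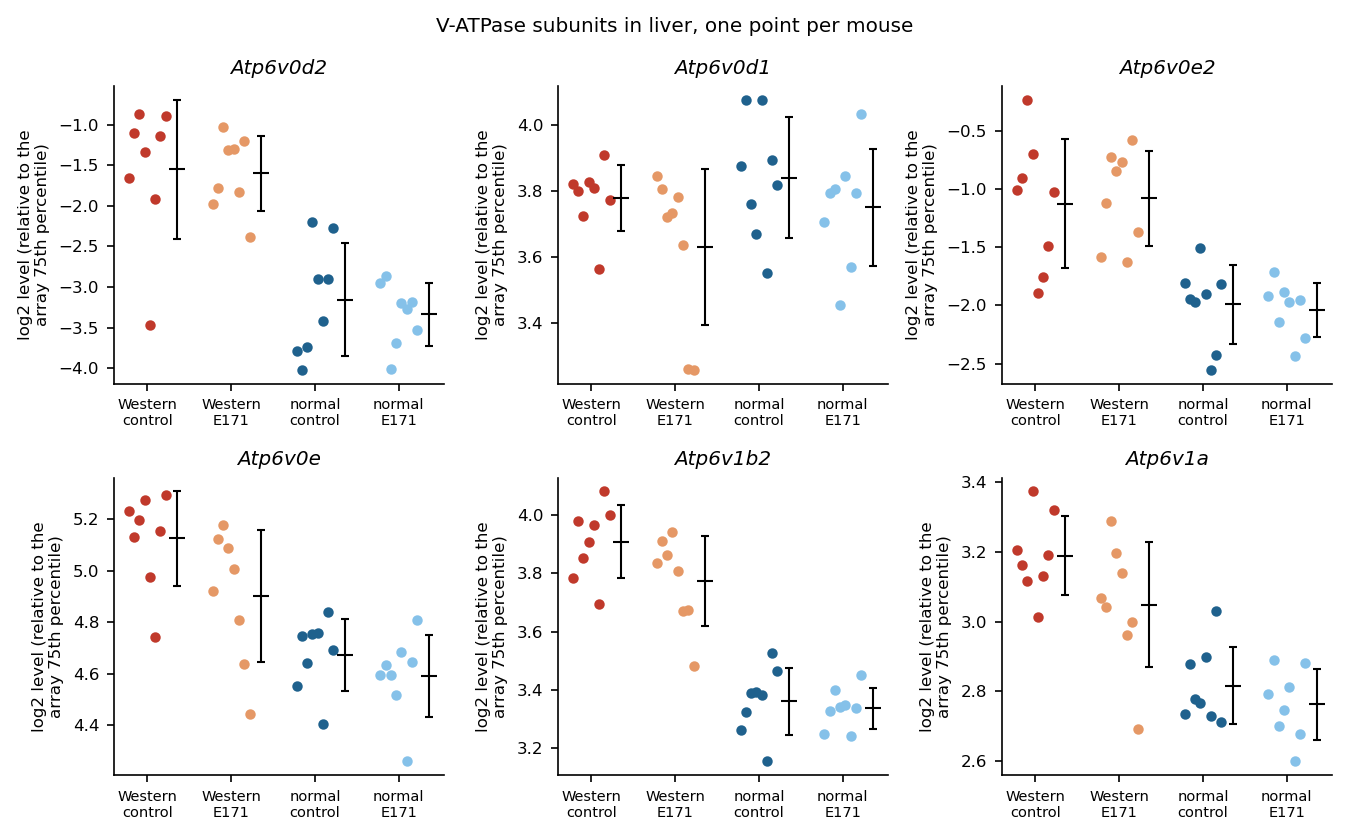
Log2 level (y axis, relative to the array's 75th percentile) of 6 V-ATPase subunits in each mouse of the 4 groups, with the mean and SD (n = 8) in black. The Western groups of Atp6v0d2 lie mostly above the normal diet groups, with 1 Western control mouse at -3.47, whereas Atp6v0d1 overlaps across all 4 groups.

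In the V1 sector, the subunits of the catalytic head rose on the Western diet in both comparisons by less than 1.5-fold. Atp6v1b2, the broadly made B subunit, had levels of 3.69, 3.94 and 4.08 in Western control mice, against 3.16, 3.39 and 3.52 in normal diet control mice. E171 mice had levels of 3.48, 3.82 and 3.94 on the Western diet, against 3.24, 3.34 and 3.45 on the normal diet. In neither comparison did the diets overlap. It was 1.46-fold higher among control mice (95% interval 1.33 to 1.60, adjusted p = 5.13e-08) and 1.35-fold higher among E171 mice (1.24 to 1.48, adjusted p = 1.59e-06).

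Atp6v1a, the ATP-splitting A subunit, was 1.30-fold and 1.22-fold higher (adjusted p = 4.95e-05 among control mice and 0.000853 among E171 mice). The stalk subunits Atp6v1c1 and Atp6v1d were 1.21-fold and 1.15-fold higher among control mice, and 1.18-fold and 1.1-fold higher among E171 mice, all past the test. Atp6v1e1, another stalk subunit, rose among control mice (0.26, SE 0.07) and stood at 0.12 among E171 mice, which did not pass (adjusted p = 0.159). The test of the difference between these diet effects gave an unadjusted p of 0.188.

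The other V1 genes did not rise. Atp6v1e2, an isoform of the E subunit best known from testis, fell by 0.36 among control mice and by 0.35 among E171 mice on the log2 scale (SE 0.14 each), at a dim level that was well above background on 27 of the 32 arrays; without normal diet control mouse 5 the value among control mice was -0.32 (adjusted p = 0.072). Atp6v1g1 and Atp6v1g2, isoforms of the G subunit, were each lower by 0.20 among E171 mice (SE 0.06 and 0.08), with -0.10 and -0.09 among control mice, which did not pass. The call for Atp6v1g1 was lost with quantile normalization (-0.04, adjusted p = 0.554). The values for Atp6v1g2 are those of its brightest probe. Its other kept probes were lower by less and passed in neither comparison, so its call rests on the choice of probe. Atp6v1f and Atp6v1h differed by 0.08 and 0.04 among control mice and by 0.01 and 0.16 among E171 mice, with no call. With quantile normalization Atp6v1f was higher in both comparisons (0.28, adjusted p = 2.76e-06, and 0.21, adjusted p = 0.000121), so its call depends on the scaling. The kidney and lung isoforms Atp6v1b1 and Atp6v1c2 were well above background on 0 arrays, and Atp6v1g3, a kidney isoform, on 1; none of these was tested.

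Among the cathepsins, 6 of 15 tested genes were higher and 2 lower on the Western diet in control mice, and 7 were higher and 4 lower in E171 mice. That is 53.3% and 73.3% called, against 47.3% and 53.2% of all genes, so the share in control mice was near that of all genes. The counts include Ctse among the higher genes and, in control mice, Ctsm among the lower. Each of them passed the filter on dim probes through the arrays of a single diet only. Ctss, a cysteine protease of antigen-presenting cells, had levels of 4.0, 5.48 and 5.84 in Western control mice, against 3.26, 3.76 and 4.66 in normal diet control mice. Levels in E171 mice were 4.80, 5.27 and 6.11 on the Western diet, against 3.54, 3.67 and 4.53 on the normal diet. As with Atp6v0d2, mouse 5 was the single Western control mouse inside the normal diet range, and the E171 groups were apart. The gene was 2.62-fold higher among control mice (95% interval 1.87 to 3.66, adjusted p = 1.9e-05) and 2.92-fold higher among E171 mice (2.09 to 4.08, adjusted p = 3.09e-06). Without mouse 5 the log2 difference among control mice was 1.58, in place of 1.39.

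Ctsk, a collagen-degrading cysteine protease best known from osteoclasts, had levels of -1.74, -0.24 and 0.55 in Western control mice, against -2.38, -1.86 and -1.40 in normal diet control mice. In E171 mice it was at -1.0, -0.12 and 0.41 on the Western diet, against -2.33, -2.08 and -1.65 on the normal diet. Again 7 of 8 Western control mice and 8 of 8 Western E171 mice lay above every normal diet mouse of their comparison. It was 2.67-fold higher among control mice (95% interval 1.91 to 3.74, adjusted p = 1.49e-05) and 3.26-fold higher among E171 mice (2.33 to 4.57, adjusted p = 7.09e-07).

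Ctse, an aspartic protease of endosomes known from stomach and immune cells, had levels of -3.79, -3.23 and -2.40 in Western control mice and -3.18, -2.74 and -2.58 in Western E171 mice. Its probe was well above background on all 16 Western arrays and on 0 of the 16 normal diet arrays, so the normal diet level is only bounded. It was at least 3.87-fold higher among control mice and at least 5.07-fold higher among E171 mice. Each bound sets the mean of the Western arrays against the lowest signal that counted as well above background on the normal diet arrays. The adjusted p of the fit (3.16e-08 and 5.72e-10) used normal diet values below background, and the gene passed the filter on dim probes only through its Western arrays, so these p do not support the bounds. Measured means were -3.19 in Western control mice and -6.20 in normal diet control mice, and -2.79 in Western E171 mice and -6.49 in normal diet E171 mice.

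**Figure D3:**
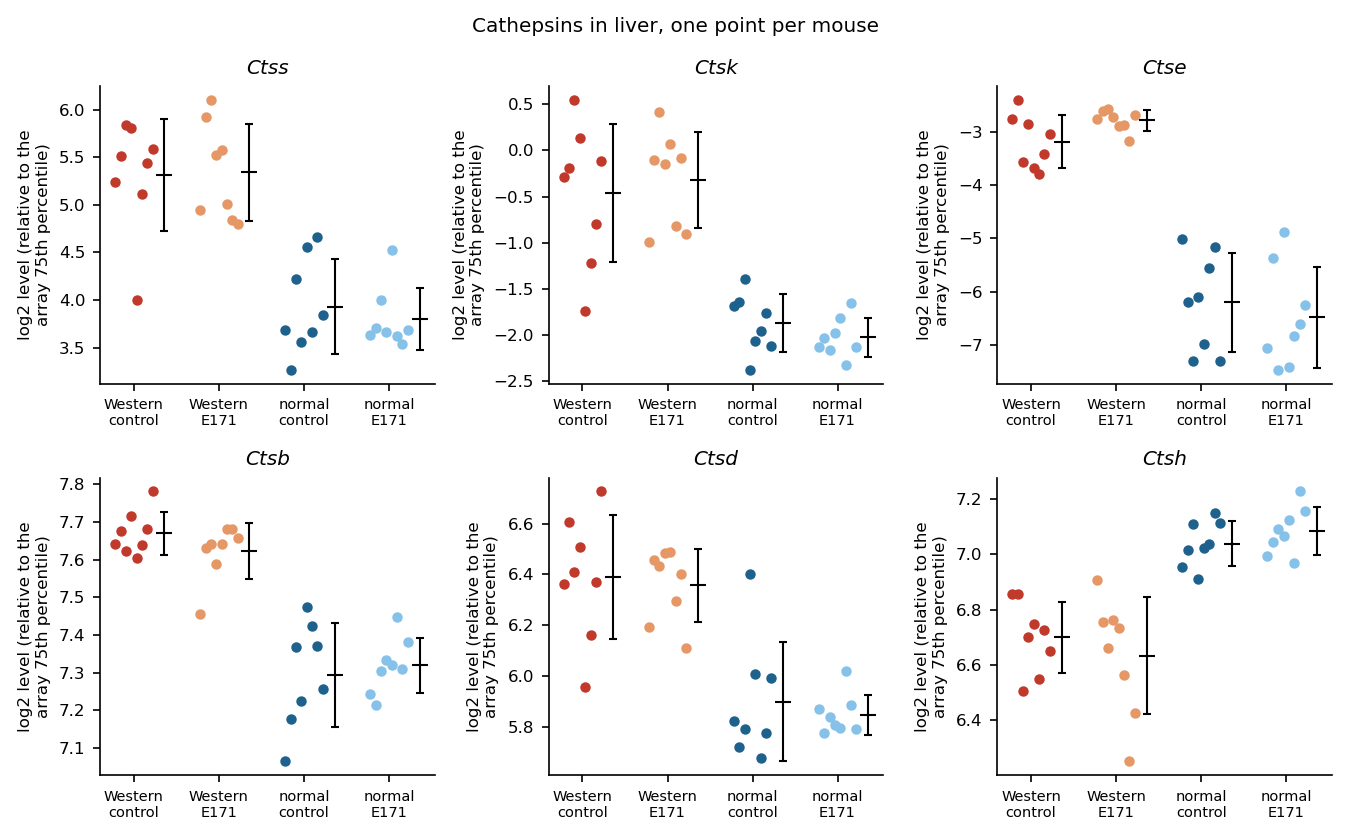
Log2 level (y axis, relative to the array's 75th percentile) of 6 cathepsins in each mouse of the 4 groups, with the mean and SD (n = 8) in black. Ctss, Ctsk and Ctse are higher in the Western groups and Ctsh is lower, with no Ctsh overlap between diets; the normal diet levels of Ctse lie below the detection call.

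The abundant cathepsins of the lysosome split by direction. Ctsb, a cysteine protease, had levels of 7.60, 7.66 and 7.78 in Western control mice, against 7.06, 7.31 and 7.47 in normal diet control mice. E171 mice had levels of 7.46, 7.64 and 7.68 on the Western diet, against 7.21, 7.32 and 7.45 on the normal diet. Every Western mouse lay above every normal diet mouse of its comparison, for a 1.30-fold difference among control mice (95% interval 1.21 to 1.40, adjusted p = 7.77e-07) and a 1.23-fold one among E171 mice (1.15 to 1.33, adjusted p = 1.47e-05). Ctsd, the main aspartic protease of lysosomes, was 1.40-fold and 1.42-fold higher (adjusted p = 9.34e-05 among control mice and 4.41e-05 among E171 mice). Ctsz, a carboxypeptidase, was 1.22-fold and 1.24-fold higher (adjusted p = 0.00237 and 0.000745).

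Ctsh, an aminopeptidase, moved the other way. It was at 6.51, 6.71 and 6.86 in Western control mice, against 6.91, 7.03 and 7.15 in normal diet control mice. Levels in E171 mice were 6.25, 6.70 and 6.91 on the Western diet, against 6.97, 7.08 and 7.23 on the normal diet. No Western mouse reached the range of its normal diet group, and the log2 difference was -0.34 (SE 0.07, adjusted p = 0.000268) among control mice and -0.45 (SE 0.07, adjusted p = 4.88e-06) among E171 mice. Its other 3 measured probes were lower in both comparisons too. With quantile normalization the difference among control mice was -0.11 and did not pass (adjusted p = 0.227).

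Ctsl, a cysteine protease abundant in liver, had levels of 6.55, 6.71 and 6.95 in Western control mice, against 6.51, 6.90 and 7.16 in normal diet control mice, and these overlapped. In E171 mice it was at 6.32, 6.52 and 6.67 on the Western diet, against 6.58, 6.76 and 6.95 on the normal diet, with 6 of 8 Western mice below the normal diet range. The difference was -0.13 (SE 0.09, adjusted p = 0.214) among control mice and -0.26 (SE 0.09, adjusted p = 0.0115) among E171 mice, and the second value was -0.05 with quantile normalization (adjusted p = 0.671). The other probe of Ctsl was also lower in both comparisons, but passed among control mice and not among E171 mice. Which comparison passes for this gene therefore rests on the choice of probe. Ctsf and Ctso, also cysteine proteases, were lower among E171 mice by 0.46 (SE 0.13) and 0.34 (SE 0.14), with -0.26 and -0.31 among control mice, which did not pass; without normal diet control mouse 5 Ctso did (-0.35, adjusted p = 0.0449). None of these members differed between the diet effects by the interaction test, whose smallest adjusted p over all 33 members was 0.930.

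The remaining cathepsins gave uncertain or no differences. Ctsa, the protective protein of lysosomal sialidase and galactosidase, differed by 0.11 and 0.12 with its brightest probe and did not pass, whereas its second probe differed by -0.44 and -0.59 (adjusted p = 0.00434 and 0.000184), so no direction can be given for the gene. Ctsc, which activates serine proteases of immune granules, and Ctsw, of cytotoxic lymphocytes, did not pass, at -0.16 and 0.19 among control mice and -0.23 and 0.34 among E171 mice. Ctsm, a cathepsin of rodent placenta, fell by 0.91 among control mice (SE 0.26) and stood at -0.54 among E171 mice, but passed the filter only through its normal diet arrays and was well above background on 4 of the 16 Western arrays and 12 of the 16 normal diet arrays. The placental genes Ctsj, Ctsq and Ctsr were well above background on 0 arrays and were not tested.

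Ctsg, a serine protease of neutrophil granules, is singled out after its values were seen, because it had the smallest interaction p of the members. It was at -5.30, -4.03 and -3.61 in Western E171 mice, against -5.70, -5.30 and -4.21 in normal diet E171 mice, a difference of 0.92 (SE 0.25, adjusted p = 0.00317). In control mice it was at -5.59, -4.61 and -4.02 on the Western diet, against -5.19, -5.02 and -3.70 on the normal diet, a difference of 0.10 (adjusted p = 0.772). The -3.70 is normal diet control mouse 5, whose neutrophil markers averaged -0.75 on the log2 scale, against -3.16 to -1.94 in the other 7 mice of its group. Without it the difference among control mice was 0.26 (SE 0.24, adjusted p = 0.385) and the interaction had an unadjusted p of 0.0581. Both pairs of groups overlapped. With all mice the interaction had an unadjusted p of 0.029 and an adjusted p of 0.930, the signal passed the background call on 23 of the 32 arrays, and with normexp background correction the difference among E171 mice was 0.07 (adjusted p = 0.400). Of 9 tested neutrophil markers, 5 were higher and 1 lower among E171 mice, and 2 were higher among control mice. Of all genes, 22.2% and 18.5% were higher in these comparisons. Elane, a granule protease gene and 1 of these 9 markers, differed by 0.06 and -0.01. It does not stand for the list, whose other granule genes Mpo, Prtn3 and Camp are not given here.

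Cell type markers moved with the same diet comparisons, and in whole liver a change in the number of cells of a type and a change in RNA per cell cannot be told apart. Of 17 macrophage markers, 14 were higher and 0 lower on the Western diet in both comparisons, with Cx3cr1 (3.03 and 3.43) and Ccr2 (2.22 and 2.42) foremost on the log2 scale. Their summed level, in units of the 75th percentile, ranged from 142 to 374 in Western control mice and from 197 to 438 in Western E171 mice, against 73.1 to 248 in normal diet control mice and 98.4 to 193 in normal diet E171 mice. In this macrophage list, the Kupffer cell markers Clec4f (0.10 and 0.11) and Timd4 (-0.50 and -0.30) did not pass. The list also holds the Kupffer cell markers Vsig4, Cd5l and Marco, whose values are not given here. Resident cells as a whole therefore cannot be read from Clec4f and Timd4. Of 11 markers of lipid-associated macrophages, 9 were higher and 1 lower in both comparisons. Of 11 stellate cell and matrix markers, 10 were higher and 0 lower in both, led by Col1a1 (3.02 and 3.36). Their summed level ranged from 109 to 274 in Western control mice and from 138 to 236 in Western E171 mice, against 79.9 to 116 in normal diet control mice and 86.4 to 116 in normal diet E171 mice. Of 12 hepatocyte markers, 0 were higher and 10 lower among control mice, and 8 lower among E171 mice. Over all genes, 18.5% were higher and 28.8% lower among control mice, and 22.2% and 31% among E171 mice. The part of these cell types in the differences of the members was not tested.

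Within single groups, where diet and E171 are constant, some members tracked these markers from mouse to mouse. For 6 pairs of a member and a marker list in 4 groups, 24 relations in all over 8 mice each, 12 had an adjusted p under 0.05 (exact permutation test of Pearson's r, two-sided, Benjamini-Hochberg over the 24), and 8 passed by the same test of Spearman's rho. Ctss followed the macrophage markers in Western control mice (r = 0.97, rho = 0.93, exact p = 0.000992, adjusted p = 0.005), in Western E171 mice (r = 0.88, rho = 0.86, exact p = 0.00575, adjusted p = 0.0197) and in normal diet control mice (r = 0.95, rho = 0.98, exact p = 0.000174, adjusted p = 0.00208). The adjusted exact p of rho was 0.0134, 0.0321 and 0.00317 in these 3 groups. Without the 2 mice farthest from the median marker level, these r were 0.83, 0.89 and 0.97. In normal diet E171 mice r was 0.83 (rho = 0.55, exact p = 0.0224, adjusted p = 0.0448) and 0.28 without the 2 farthest mice, so there the relation rests on those mice.

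Ctsk followed the stellate and matrix markers in Western control mice (r = 0.98, rho = 1.0, adjusted exact p = 0.000595) and in Western E171 mice (r = 0.97, rho = 0.88, adjusted exact p = 0.005), with r of 0.95 and 0.94 without the 2 farthest mice and an adjusted exact p of rho of 0.00119 and 0.029. The unadjusted exact p in Western control mice, 2.48e-05, is the smallest that 8 mice can give. On the normal diet the relation did not pass, with r = 0.55 in control mice and r = 0.74 in E171 mice (adjusted exact p = 0.236 and 0.0631), although rho in normal diet E171 mice passed (0.86, adjusted exact p = 0.0321). Ctsw, which did not pass the diet test, followed the T and NK cell markers in all 4 groups: r was 0.82 in Western control, 0.83 in Western E171, 0.92 in normal diet control and 0.94 in normal diet E171 mice, with adjusted exact p from 0.00337 to 0.0275. By rho it passed on the normal diet (0.90 and 0.98, adjusted exact p = 0.0219 and 0.00317) and not on the Western diet (0.76 and 0.79, adjusted exact p = 0.0802 and 0.0745), and r in Western control mice was 0.54 without the 2 farthest mice.

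**Figure D4:**
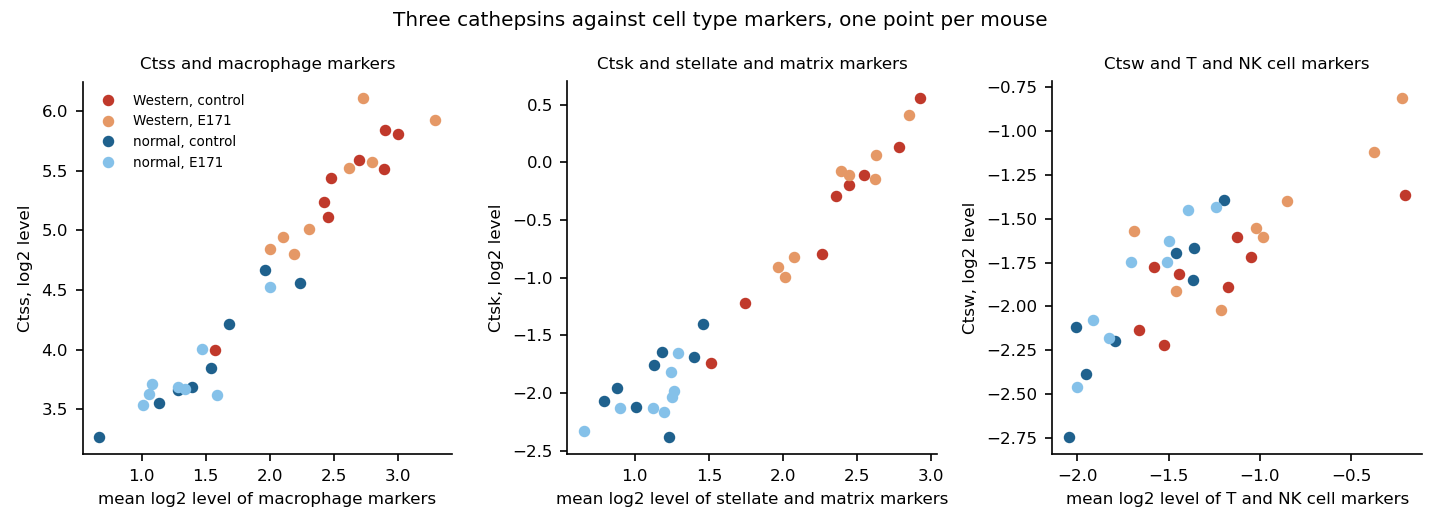
Log2 level of Ctss, Ctsk and Ctsw (y axes) against the mean log2 level of macrophage, stellate and matrix, and T and NK cell markers (x axes), 1 point per mouse, coloured by group. Within Western control mice r was 0.97 for Ctss, 0.98 for Ctsk and 0.82 for Ctsw; the Western control mouse among the normal diet points of the first panel is mouse 5.

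The 3 other pairs were less regular. Atp6v0d2 followed the macrophage markers in Western control mice (r = 0.91, adjusted exact p = 0.0275, 0.74 without the 2 farthest mice) and not in Western E171 mice (r = 0.25, 0.91 without the 2 farthest). Ctsd passed in Western control mice (r = 0.81, adjusted exact p = 0.031, 0.59 without the 2 farthest), and neither gene passed on the normal diet. By rho neither passed in Western control mice (0.71 and 0.76, adjusted exact p = 0.106 and 0.0802). Ctsb passed in no group, with r from 0.12 to 0.63.

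A further 20 relations were chosen after these values were seen and were adjusted over themselves. Atp6v0d2 followed the lipid-associated macrophage markers in Western control mice (r = 0.88, adjusted exact p = 0.00273) and in Western E171 mice (r = 0.91, adjusted exact p = 0.0115), and not on the normal diet (r = 0.10 in control mice and -0.29 in E171 mice). With the stellate list its r was 0.84 in Western control mice and 0.88 in Western E171 mice, with an adjusted exact p of 0.0143 in both. Without the 2 farthest mice these r were 0.40 and 0.79, against 0.90 and 0.89 with the lipid-associated macrophage list. By rho the stellate relation passed in Western E171 mice (adjusted exact p = 0.0306) and not in Western control mice (adjusted exact p = 0.0544). The marker lists are not independent of each other: the macrophage and the stellate lists correlated at r = 0.87 in Western control mice (adjusted exact p = 0.0114) and 0.60 in Western E171 mice (adjusted exact p = 0.255). Ctss also followed the stellate list in Western control mice (r = 0.90), and Ctsk the macrophage list (r = 0.88). In normal diet control mice Ctss had r = -0.22 with the stellate list. Each slide held 2 mice of a group, too few for r within a slide. The permutations of all these relations exchanged mice across slides, so the part of slide in them was not tested. In Western control mice, those of slide 3 were highest in Ctsk (0.55 and 0.14) and in the stellate and matrix markers (2.93 and 2.78).

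Other lysosomal genes gave the setting. Of 47 lysosomal membrane proteins and hydrolases, 20 were higher and 8 lower on the Western diet in control mice, and 24 higher and 9 lower in E171 mice. Over all genes, 18.5% were higher and 28.8% lower in control mice, and 22.2% and 31% in E171 mice. Among the higher genes were Cd63, a tetraspanin (1.92, SE 0.27, and 2.10), and Hexa, a hydrolase (1.09 and 1.15). The lowest were Sgsh, a sulfatase of heparan sulfate breakdown (-0.72, SE 0.19, and -0.87), Gm2a, a lipid-presenting activator protein (-0.42 and -0.76), and Lamp2, a membrane protein (-0.27 and -0.35).

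Of 17 lysosome regulators, 6 were higher and 2 lower among control mice, and 4 were higher and 1 lower among E171 mice, where 18.5% and 22.2% of all genes were higher. Rragd, a Rag GTPase of nutrient sensing, was highest (1.52, SE 0.24, and 1.35). Tfeb and Tfe3, which switch on lysosomal genes, did not pass at the RNA level (-0.03 and 0.06 among control mice, -0.08 and -0.08 among E171 mice). Of 12 tested V-ATPase accessory and assembly factors, 2 were higher and 2 lower among control mice and 3 and 3 among E171 mice. They included Ncoa7, a pump-binding protein (0.70 and 0.66), and Dmxl1, of the assembly complex (-0.40 and -0.34). Of 8 tested cathepsin inhibitors, 3 were higher and 1 lower in both comparisons, with cystatin B (Cstb) at 0.71 and 0.61 and Serpina3n at -0.43 in each. Over all genes, 47.3% were called among control mice and 53.2% among E171 mice. The counts of regulators, accessory factors and inhibitors lay near those shares or below them.

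Promoters of the members were searched for TCACGTG on either strand, the core of the element that TFEB and its relatives bind, in RefSeq windows of the GRCm38.p6 build that span 250 bases before to 50 after each gene start. Windows were found for 16 V-ATPase and 14 cathepsin genes. The motif was present in 4 of the 16 (Atp6v0b, Atp6v0d1, Atp6v0e and Atp6v1a) and in 2 of the 14 (Ctsa and Ctsd), and in 3.77% of all 32851 windows. CACGTG alone, which is part of it, was present in 4 V-ATPase and 4 cathepsin genes and in 7.15% of all windows. Stretches before the gene start of 4 of these genes, 5′ to 3′ on the gene's strand, show the motif in capitals; where TCACGTGA is in capitals, matches on both strands overlap. They lie at chr4:117887330-117887378 (minus strand), chr16:44139354-44139420 (minus), chr2:164833731-164833772 (plus) and chr7:142387889-142387955 (minus).
Atp6v0b: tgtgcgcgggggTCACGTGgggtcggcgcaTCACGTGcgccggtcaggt
Atp6v1a: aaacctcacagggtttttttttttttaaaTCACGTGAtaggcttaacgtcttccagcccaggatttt
Ctsa: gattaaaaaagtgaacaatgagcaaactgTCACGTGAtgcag
Ctsd: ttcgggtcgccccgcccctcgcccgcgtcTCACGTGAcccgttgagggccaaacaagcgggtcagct

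Of these 4 genes, Atp6v1a and Ctsd were higher on the Western diet in both comparisons, and Atp6v0b and Ctsa passed in neither with the probe used. Among the members at least 2-fold higher, Ctss and Ctsk had no TCACGTG in their windows, and Atp6v0d2 and Ctse had no window to search. A match is a run of letters and not a measured binding site, and its absence from these windows says only that the letters are not there.

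E171 gave no call among the members on either diet. On the Western diet, 0 of 33 members passed in E171 mice against control mice (limma; 6 at an unadjusted p under 0.05), where 0.381% of all genes were called. On the normal diet, 0 of 33 passed (0 at an unadjusted p under 0.05), where 0% of all genes were called. Averaged over diets, 0 passed (2 at an unadjusted p under 0.05), where 0.368% of all genes were called, and for the interaction 0 passed (1 at an unadjusted p under 0.05), where 0% were called. These comparisons share mice with the diet comparisons above. The shares of all genes given here are at the adjusted threshold. The share at an unadjusted p under 0.05 was not computed, so the unadjusted counts of members have no background to be set against.

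The 6 members with an unadjusted p under 0.05 on the Western diet, named after their values were seen, were Atp6v0e (-0.23), Atp6v1e1 (-0.17), Atp6v1a (-0.14), Atp6v1b2 (-0.14) and Ctsl (-0.22), all lower in E171 mice, and Ctsg (0.57), higher. The value for Atp6v0e is that of its brightest probe, and its other kept probes differed by -0.04 and -0.02. Its mean over probes differed by -0.09 (limma, unadjusted p = 0.114). Ctsl had the smallest adjusted p, 0.266: it was at 6.32, 6.52 and 6.67 in Western E171 mice, against 6.55, 6.71 and 6.95 in Western control mice, and the groups overlapped. Western E171 mouse 8 was the lowest of its group for Ctsl and for each of the 4 V-ATPase genes, and without it 2 members, in place of 6, had an unadjusted p under 0.05 (smallest adjusted p = 0.451).

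The intervals give the sizes of E171 difference that these arrays allow. On the Western diet, 26 of 33 members had a 95% interval of the log2 difference that lay within 0.5 of 0, and so did 26 of the 32 on the normal diet that were above background there on any array, which leaves out Ctse. The widest limits on the Western diet were -0.67 for Atp6v0d2 and 1.1 for Ctse, and on the normal diet -0.80 for Atp6v0d2 and 0.53 for Ctsw. For the members with large diet differences the E171 differences on the Western diet were -0.05 (SE 0.30) for Atp6v0d2, 0.02 (SE 0.24) for Ctss, 0.14 (SE 0.24) for Ctsk and 0.40 (SE 0.34) for Ctse. On the normal diet they were -0.18 for Atp6v0d2, -0.13 for Ctss and -0.15 for Ctsk with the same SE, and Ctse was not above background there. These values do not show that E171 had no effect on them. The fit shares a single residual variance per gene over the 4 groups. The SE and limit of Ctse on the Western diet therefore also rest on normal diet values below background.

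**Figure D5:**
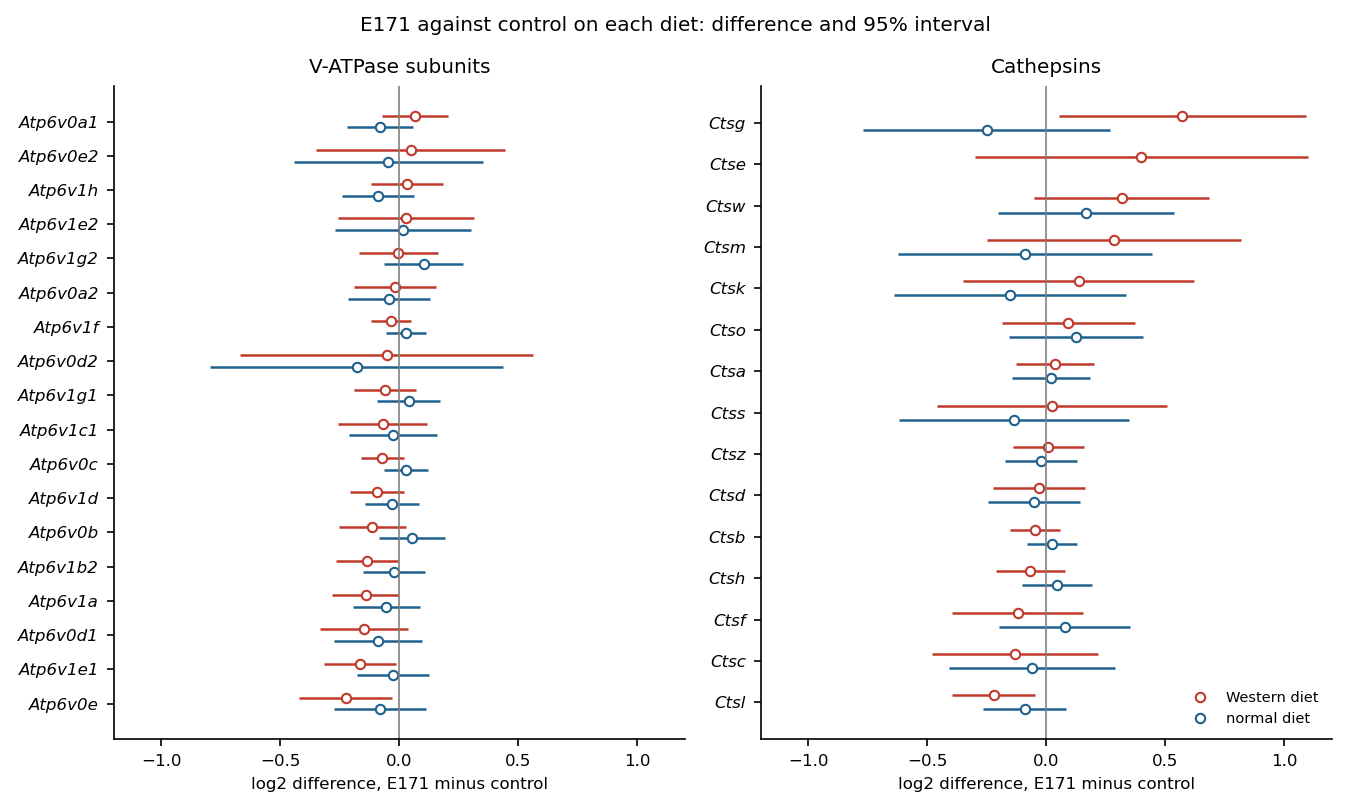
Log2 difference (x axis) of each tested V-ATPase subunit (left) and cathepsin (right), E171 minus control, with its 95% interval, on the Western diet (red) and the normal diet (blue), 8 mice a group. Open points mark that no member passed the test; most intervals lie within 0.5 of 0. Ctse has no normal diet point because its probe was well above background on 0 of those 16 arrays.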

How the data were processed

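Liver RNA of 32 mice was measured on one-colour Agilent arrays. The raw files hold Cy3 intensity values which, per the file headers, are background-corrected processed signals on a linear scale; the submitters' processing notes name Agilent Feature Extraction 10.10.1.1 and limma. The authors also deposited log2 values for 36695 probes, whose normalization is not given in the sources used here; these columns correlated with log2 of the processed signal at 0.989 or more, and their medians ran from 7.12 to 7.18. They served as an alternative.

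Outlier and control spots were left out, spots of 1 probe were averaged as log2 processed signal, and each array's 75th percentile was subtracted. Probes well above background on at least 6 of 8 arrays of at least 1 group were kept (35777, of which 56 are members'), and a gene was represented by its brightest kept probe. Names came from RefSeq matches of accession, symbol or synonym, or from the file. Groups came from the sample titles. limma 3.58.1 in R 4.3.3 fitted 4 group means to all 32 arrays (lmFit, eBayes, two-sided, Benjamini-Hochberg over 23644 genes, threshold 0.05), and the fit was tested on simulated data. Relations used exact permutation over mice in Python 3.11.15 with NumPy 2.4.6. Replicates are single mice, and their number limits the precision. Slide and scan coincide: each of 4 slides held 2 mice of every group.

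The members, gene lists and relations were chosen with earlier results of these data known, and the lists support nothing by themselves. Named genes were each member once, in full where at least 2-fold different and called on diet, plus up to 3 abundant members or isoforms a family, and up to 3 highest and 3 lowest called genes of each other list; exceptions are marked, and 1 result is not reported here. Other lists of B cell, endothelial, cholangiocyte and intercalated cell markers gave 1, 2, 5 and 0 higher and 1, 2, 0 and 3 lower genes on the Western diet among control mice, of 6, 9, 7 and 4 tested, and the T and NK cell list gave 3 higher and 2 lower of 12. Of all genes, 18.5% were higher and 28.8% lower in that comparison. Alternatives were background correction, normalization, scaling, filter, probe choice, slide and replicate blocks, and leaving out each of 3 mice, which was chosen after seeing the data.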

Additional observations from a re-analysis of the deposited data

Results flagged for a closer look

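Single mice stood far from the other 7 of their group in 12 of the 132 combinations of a tested member and a group: the gap to the nearest mouse took a larger share of the group's whole range than Dixon's 95% critical value for 8 samples. Chance flags about 5% of such groups. Levels below are log2 relative to the array's 75th percentile.

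Western control mouse 5 was lowest in Atp6v0d2 (-3.47, others -1.91 to -0.87) and in Ctss (4.0, others 5.12 to 5.84). Its macrophage markers averaged 1.57 (others 2.42 to 3.00) and its stellate and matrix markers 1.51 (others 1.74 to 2.93); the part of these cells in its low values was not tested. In Western E171 mice, Ctsb was low in mouse 1 (7.46, others 7.59 to 7.68) and Atp6v0a1 high in mouse 7 (4.21, others 3.89 to 4.0).

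Normal diet control mouse 4 was highest in Atp6v0a1 (4.23, others 3.69 to 3.94) and in Ctsd (6.40, others 5.68 to 6.01). Normal diet control mouse 5 was highest in Ctsg (-3.70, others -5.19 to -4.78) and in Ctsz (5.81, others 5.49 to 5.62). Its neutrophil markers averaged -0.75 (others -3.16 to -1.94) and its macrophage markers 2.23 (others 0.67 to 1.96); the part of these cells was not tested. Among normal diet E171 mice, mouse 6 was highest in Ctsd (6.02, others 5.78 to 5.89) and Atp6v1g2 (-1.74, others -2.41 to -2.13), mouse 8 in Atp6v1f (6.16, others 5.98 to 6.05) and mouse 5 in Ctss (4.53, others 3.54 to 4.0).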

How the results depend on the processing

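Counts of called members on the Western diet kept within 1.5 times of the reported ones except in 3 cases: 7 lower among E171 mice became 4 with the deposited table and 4 with no filter on dim probes, and 3 lower among control mice became 1 when only probes well above background on all arrays were used, which left 29 members to test. Scaling moved the balance: with quantile normalization 19 members were higher and 2 lower among control mice and 20 and 6 among E171 mice, and the deposited values gave 19 and 2, and 20 and 4. Over all genes, the share of calls that were higher was 54.5% with the deposited table in place of 39.2% among control mice. Of the members called in the report, 16 of 17 and 21 of 23 were called with quantile normalization. With the mean of all probes, Atp6v0e among E171 mice was -0.0514 and Ctsa -0.24 (adjusted p = 0.00687), because their probes disagree. Over the refits of single members, 628 values kept their side of the threshold, 24 lost a call, 31 gained one and 2 reversed, namely Atp6v0e and Ctsa above. With the deposited values, 14 of 24 relations passed, in place of 12. Within slides, all 17 called members of control mice had the same direction on each of 4 slides, and 22 of 23 of E171 mice. These members were called on the same arrays, Ctse and Ctsm among them, so the agreement follows in part from that choice. It is no separate support. The labels do not say that replicate numbers mark a shared litter or batch. Deviations of same-numbered mice correlated at -0.30 to 0.57 (median 0.07, against -0.02 for other numbers), 23 of 48 pairs were over 0.1 and 8 of 32 arrays matched their own number best. Whether same-numbered mice share a litter or batch was not tested. The mice were left unpaired because the labels name no pairing. A replicate block gave 15 higher and 4 lower members among control mice, and 16 and 7 among E171 mice. For E171 on the Western diet over all genes, the block gave 93 higher and 78 lower calls in place of 50 and 40, while leaving out Western control mouse 5 gave 21 and 25 and Western E171 mouse 8 gave 31 and 15; under every alternative 0 members were called for E171. Without mouse 8, Atp6v1g2 lost its call among E171 mice (-0.19, adjusted p = 0.0601) and Ctsm gained one (-0.70, adjusted p = 0.0195). Dim members (Ctse, Ctsg, Ctsm, Atp6v1e2) are limited by signal over background.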
